A study of Mus musculus with 12 samples.

Results

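Solute carriers are the membrane proteins that move sugars, amino acids, ions, metals, vitamins and metabolites across the plasma membrane and across organelle membranes. The members described here were all probes whose platform symbol begins with Slc and a digit, apart from Slc2a4 and Slc27a2, which were left out. They came to 262 of the 17589 probes on the arrays and stood for 244 of 12913 genes with a symbol. Genes were sorted by substrate, and the Slc25 carriers of the mitochondrial membranes, 32 genes, were kept apart.

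The study measured RNA of the growing mouse mammary gland on 12 arrays with 2 colours. Per the labels, 6 arrays carried terminal end buds (TEBs, the swollen growing tips of the ductal tree) and 6 carried mature ducts, in Cy5. Each array carried distal stroma, gland tissue free of epithelium, in Cy3. All tissue was microdissected from glands of 5-week-old B-actin-GFP reporter mice, whose fluorescence served to see the ducts, so TEB, duct and stroma shared the reporter transgene. Neither strain nor treatment is given, no dye swap is labelled, and the labels do not say whether arrays came from separate animals or from pools. P-values therefore measure the spread between arrays, which may be technical. The tests against stroma treat it as a single control sample and leave out how stroma itself varies. With epithelium in Cy5 and stroma in Cy3 on every array, they cannot tell a dye effect from a difference between tissues.

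A carrier moves its substrate down a gradient, or pulls it uphill by coupling it to sodium, protons or an exchanged solute. Epithelia sort their carriers between the face towards the lumen and the face towards the tissue, and the mammary gland later uses such carriers to load milk with glucose for lactose, amino acids, phosphate, zinc and iodide. Fat cells, which fill the stroma of the mouse mammary gland, rely on mitochondrial carriers of fatty acid and citrate metabolism.

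The promoter windows of 4 carriers are shown because these genes differed between the structures, Slc2a1 and Slc16a3 being higher in TEBs and Slc34a2 and Slc30a4 lower. Each window holds the 250 bases before the gene's start, 5′ to 3′ on the gene's strand, from RefSeq in GRCm38.p6. Slc2a1 lies at chr4:119108495-119108744 on the plus strand, Slc16a3 at chr11:120948817-120949066 on the plus strand, Slc34a2 at chr5:53049103-53049352 on the plus strand and Slc30a4 at chr2:122702664-122702913 on the minus strand. Capitals mark matches on either strand to ACGTG or GCGTG, the cores of the hypoxia response element, or to TTCNNNGAA, the core bound by STAT proteins.
Slc2a1: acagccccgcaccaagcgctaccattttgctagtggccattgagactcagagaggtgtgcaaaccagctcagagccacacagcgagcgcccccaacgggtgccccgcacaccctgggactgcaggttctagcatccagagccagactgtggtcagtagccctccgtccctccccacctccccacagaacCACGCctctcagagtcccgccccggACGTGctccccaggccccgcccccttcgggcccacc
Slc16a3: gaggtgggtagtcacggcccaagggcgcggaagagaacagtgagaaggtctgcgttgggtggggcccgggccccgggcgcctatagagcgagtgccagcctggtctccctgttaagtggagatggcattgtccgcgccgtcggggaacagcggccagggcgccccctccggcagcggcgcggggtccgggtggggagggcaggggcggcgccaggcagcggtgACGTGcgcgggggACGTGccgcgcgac
Slc34a2: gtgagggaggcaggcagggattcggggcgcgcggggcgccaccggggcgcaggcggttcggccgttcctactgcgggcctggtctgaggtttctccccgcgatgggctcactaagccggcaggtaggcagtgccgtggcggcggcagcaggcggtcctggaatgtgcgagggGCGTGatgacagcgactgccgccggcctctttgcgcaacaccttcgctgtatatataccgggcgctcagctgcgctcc
Slc30a4: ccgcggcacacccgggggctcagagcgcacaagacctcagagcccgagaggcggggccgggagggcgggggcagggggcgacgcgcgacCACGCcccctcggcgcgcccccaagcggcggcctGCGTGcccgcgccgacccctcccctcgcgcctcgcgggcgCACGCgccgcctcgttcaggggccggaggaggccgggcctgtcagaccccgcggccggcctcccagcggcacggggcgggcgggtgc
The Slc2a1 window held 1 ACGTG, 36 bases before the start, and 1 GCGTG, 61 bases before it. The Slc16a3 window held 2 ACGTG matches, 27 and 14 bases before the start. The Slc34a2 window held 1 GCGTG and the Slc30a4 window 3, and no window held TTCNNNGAA. Of 32851 windows of the same length, 16.6% held ACGTG, 28.2% GCGTG and 7.02% TTCNNNGAA, so each match is common, and a match is a description of the letters and not a site. Among 259 windows of 195 member genes the shares were 21.2%, 36.7% and 6.18%.

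Before the carriers, the labels were checked against marker genes. All 8 luminal and all 6 measured basal or myoepithelial markers were higher than stroma in TEBs and in ducts by limma with Benjamini-Hochberg adjustment. Between the structures, 4 of the 8 luminal markers were higher in TEBs than in ducts, and 2 of the 6 basal or myoepithelial markers were lower. Markers of other cell types moved too: all 6 endothelial markers were lower in TEBs than in ducts. So were 5 of 7 brown adipocyte and 3 of 6 measured adipocyte markers, and 3 of 4 measured division markers were higher. Of 6 fibroblast markers, 1 was lower in TEBs than in ducts (Col3a1, -1.22). Against stroma, 3 fibroblast markers were higher in ducts and 1 in TEBs. Values spread more on TEB arrays (SD over probes 0.535 to 0.635) than on duct arrays (0.380 to 0.484), so differences between the structures were also computed on other scales. Values are also given for the 4 arrays with slide numbers up to 193 in the labels (2 TEB and 2 duct, the lower-numbered slides) and the 8 from 196 (4 of each, the higher-numbered slides); what the numbers stand for is not labelled, and this split was chosen after seeing the data. Both slide sets are parts of the arrays that gave the calls, so values on them are no independent check. In such bulk tissue, fewer cells of a type and less RNA per cell cannot be told apart.

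Between the structures, 11 of 244 carrier genes were higher in TEBs than in ducts (4.51%), against 9.11% of all genes, and 28 were lower (11.5%), against 11.3% of all genes, at an adjusted p of 0.05 over all probes by limma; 4 of the lower genes turned sign, without passing, under quantile normalization. The higher genes carry large neutral amino acids (Slc7a5), lactate (Slc16a3), other monocarboxylates (Slc5a8), mitochondrial aspartate and glutamate (Slc25a12 and Slc25a13), glucose (Slc2a1), phosphate (Slc20a1), zinc (Slc30a7 and Slc39a1) and the sulfate donor PAPS (Slc35b2), and include the scaffold Slc9a3r1. Of these, Slc25a13, Slc2a1, Slc20a1, Slc30a7, Slc39a1 and Slc35b2 did not pass under either of the other scalings given further on. The lower genes carry citrate, dicarboxylates and acylcarnitine in mitochondria, phosphate, peptides, fructose and bicarbonate. Slc25a20 for acylcarnitine and Slc4a4 for bicarbonate are among the 4 that turned. Of the 28 lower genes, 13 passed under both other scalings, and Slc25a1 for citrate and Slc2a5 for fructose were not among them. The share of lower carriers lay near that of all genes, and the share of higher carriers lay below it; the difference of these shares was not tested. On 8 genes every TEB array stood above every duct array (3.28%, against 4.91% of all genes), and on 9 every TEB array stood below (3.69%, against 6.3%). The median difference over the carriers was -0.03 on the log2 scale, against 0.00 over all genes. Values are log2 ratios over stroma, and log2 is the reading taken for a deposited table that does not state its base.

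**Figure D1:**
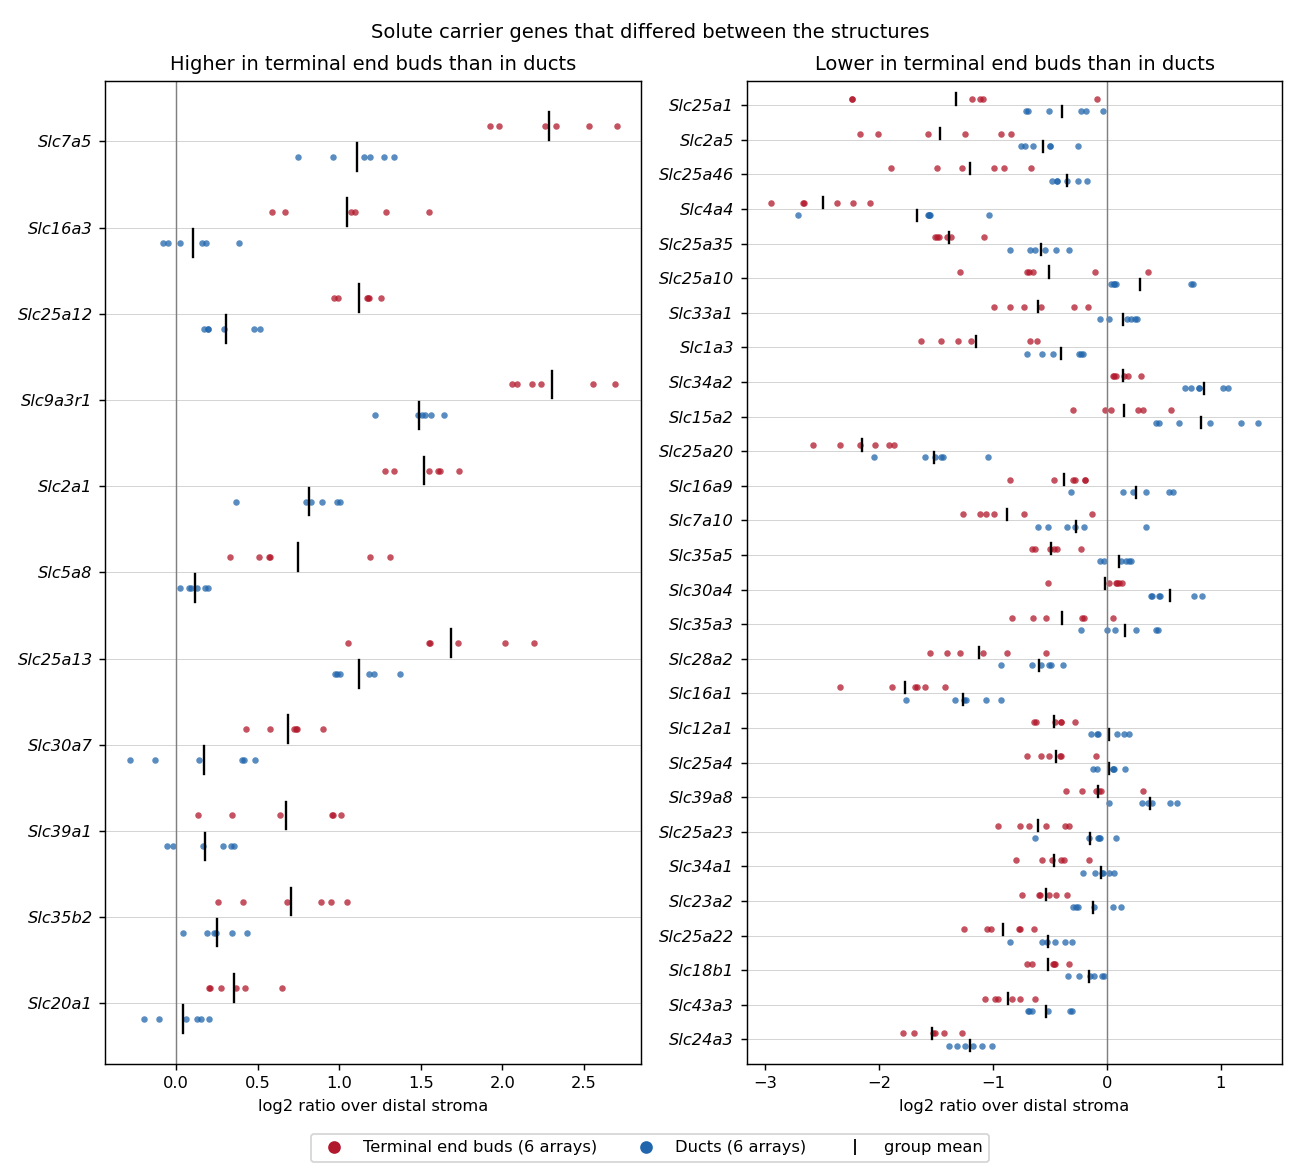
Log2 ratio over distal stroma on every array (points, 6 TEB arrays and 6 duct arrays) for the 39 carrier genes that passed between TEB and duct, with group means as bars. The left panel holds 11 higher genes and the right panel 28 lower genes, ordered by the size of the difference, of which 4 (Slc4a4, Slc25a20, Slc16a1 and Slc24a3) turned sign under quantile normalization; for Slc7a5 the lowest TEB array, 1.93, stood above the highest duct array, 1.34.

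**Figure D2:**
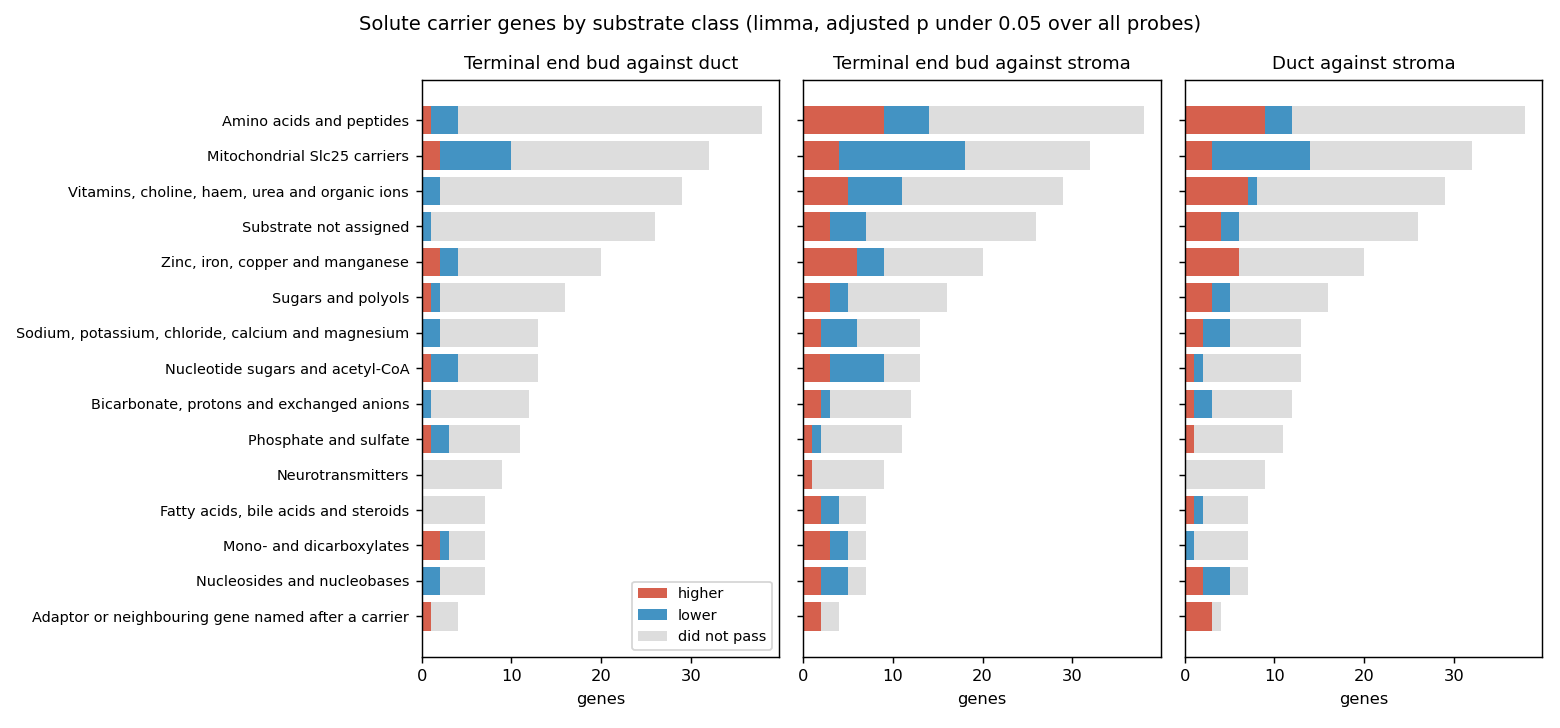
Number of carrier genes (x axis) in each substrate class that were higher, lower or did not pass, in TEB against duct, TEB against stroma and duct against stroma. Mitochondrial Slc25 carriers, 32 of the 244 genes, hold 8 of the 28 genes lower in TEB than in duct (Slc25a20 with its sign turned under quantile normalization). Of these 8, only Slc25a10, Slc25a4 and Slc25a46 also passed both with a common spread and under quantile normalization. Amino acid carriers form the class with most genes, 38.

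Among the 16 sugar and polyol carriers, 1 was higher in TEBs than in ducts and 1 was lower. Of all genes, 9.11% were higher and 11.3% lower. Slc2a1 (GLUT1), the glucose uniporter of most growing cells and the main glucose entry of mammary epithelium, had log2 ratios of 1.28, 1.58 and 1.73 (lowest, median and highest) on TEB arrays, against 0.37, 0.86 and 1.003 on duct arrays. All TEB arrays lay above all duct arrays, and the lowest duct array, replicate 4, stood apart from the other ducts. The difference was 0.71 (SE 0.12, adjusted p = 0.000691 by limma), a 1.63-fold difference. It fell short of the threshold when arrays were brought to a common spread (0.47, adjusted p = 0.0530) and under quantile normalization (0.37, adjusted p = 0.110). Slc2a5 (GLUT5), the fructose carrier, went the other way, with -2.17, -1.41 and -0.84 on TEB arrays, against -0.76, -0.58 and -0.26 on duct arrays. No array overlapped, and Slc2a5 was below stroma on every array of both structures. Its difference of -0.90 (SE 0.21, adjusted p = 0.00768 by limma) was -1.19 on the 8 higher-numbered slides and -0.31 on the 4 lower-numbered ones, and -0.40 (adjusted p = 0.253) under quantile normalization. Slc2a9, which carries urate, and Slc2a8, an intracellular hexose carrier, passed only against stroma. Slc2a9 averaged 0.46 ± 0.39 in TEBs and 0.48 ± 0.29 in ducts, and Slc2a8 averaged -0.37 ± 0.21 in TEBs and -0.32 ± 0.13 in ducts (SD, n = 6 each). Slc5a1, the sodium-coupled glucose carrier named here after its values were seen, averaged 0.26 in TEBs and 0.35 in ducts and passed in no comparison.

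The proton-coupled lactate carriers split. Slc16a3 (MCT4), known for exporting lactate from glycolytic cells, had log2 ratios of 0.59, 1.09 and 1.55 on TEB arrays, against -0.08, 0.09 and 0.39 on duct arrays. The duct values lay around 0, the level of stroma, and no array overlapped. The difference was 0.94 (SE 0.15, adjusted p = 0.000613 by limma), and it passed on the lower-numbered slides (1.04) as on the higher-numbered ones (0.89). Slc16a1 (MCT1), which takes up or releases lactate, pyruvate and ketone bodies, was below stroma on every array, with -2.34, -1.68 and -1.43 in TEBs and -1.76, -1.25 and -0.93 in ducts. Slc16a1 had a difference of -0.51 (SE 0.16, adjusted p = 0.0386 by limma) on the deposited scale, but quantile normalization turned it to 0.23 (adjusted p = 0.353) and it did not pass there. The call was also lost on leaving out any of TEB replicates 2, 4, 5 and 6 or duct replicates 1, 3, 4, 5 and 6, with differences of -0.53 to -0.39. Slc5a8, a sodium-coupled carrier of short-chain monocarboxylates, had 0.33, 0.57 and 1.31 on TEB arrays, against 0.02, 0.11 and 0.19 on duct arrays. The groups did not overlap, 2 TEB arrays were far above the other 4, and the difference was 0.63 (SE 0.15, adjusted p = 0.00908 by limma). Slc16a7 (MCT2) did not pass between the structures; its mean over stroma of -0.31 in TEBs passed, but not without TEB replicate 3 or 6 (-0.24 and -0.21).

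Of 38 amino acid and peptide carriers, Slc7a5 was higher in TEBs than in ducts and 3 were lower. Over all genes the shares were 9.11% higher and 11.3% lower. Slc7a5 (LAT1), which exchanges large neutral amino acids such as leucine, had log2 ratios of 1.93, 2.30 and 2.70 on TEB arrays, against 0.75, 1.17 and 1.34 on duct arrays. Every array lay above stroma and the structures did not overlap. The difference of 1.18 (SE 0.14, adjusted p = 7.37e-05 by limma) was the largest among the carriers that passed, 2.26-fold, with 1.11 on the lower-numbered and 1.21 on the higher-numbered slides. Slc3a2 (4F2hc), the partner chain that brings Slc7a5 to the membrane, had 0.55, 0.77 and 0.92 on TEB arrays, against 0.51, 0.74 and 0.85 on duct arrays. Slc3a2 thus overlapped fully between structures (difference 0.05, SE 0.09, adjusted p = 0.745), while both structures were above stroma. Slc38a1 (SNAT1), a sodium-coupled glutamine carrier, was above stroma in both, at 1.18 ± 0.61 in TEBs and 0.69 ± 0.31 in ducts (SD, n = 6 each), and did not pass between them. Slc1a5 (ASCT2), also a glutamine carrier, averaged -0.47 ± 0.47 in TEBs and -0.21 ± 0.16 in ducts. Only the TEB mean passed against stroma, and on the lower-numbered slides alone that mean was -0.02.

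Slc15a2 (PEPT2), which takes up di- and tripeptides with protons and is known from mammary epithelium, had log2 ratios of -0.30, 0.15 and 0.56 on TEB arrays, against 0.43, 0.77 and 1.33 on duct arrays. The ranges met only at their edges, ducts were above stroma on every array and TEBs lay around it. The difference was -0.68 (SE 0.18, adjusted p = 0.0149 by limma), and it was -0.85 under quantile normalization. Slc1a3 (GLAST), a glutamate carrier, was below stroma on every array, with -1.63, -1.25 and -0.62 in TEBs and -0.70, -0.36 and -0.21 in ducts. Its difference of -0.74 (SE 0.17, adjusted p = 0.00709 by limma) did not pass under quantile normalization (-0.41) or on the lower-numbered slides (-0.30), and its duct mean over stroma (-0.41) did not pass without duct replicate 1, 4 or 6 (-0.39 to -0.35). Slc7a10 (Asc-1), a carrier of small neutral amino acids known in fat, averaged -0.88 ± 0.41 in TEBs and -0.27 ± 0.34 in ducts (SD, n = 6 each). Its difference of -0.61 (adjusted p = 0.0374 by limma) was lost on leaving out any of TEB replicates 3, 4, 5 and 6 or duct replicates 1, 2, 4 and 5 (-0.63 to -0.49), and under both other scalings. Against stroma, 9 of the 38 amino acid and peptide carriers were higher and 5 lower in TEBs, where 24.8% of all genes were higher and 21.8% lower. In ducts 9 were higher and 3 lower, where 17.1% of all genes were higher and 13% lower. Slc7a11, the cystine carrier named after its values were seen, averaged 0.05 in TEBs and -0.05 in ducts.

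Phosphate carriers also split. Slc34a2 (NaPi-IIb), the sodium-phosphate carrier of the luminal face of secretory epithelia, had log2 ratios of 0.06, 0.12 and 0.29 on TEB arrays, against 0.69, 0.81 and 1.06 on duct arrays. TEB arrays sat just above the stroma level and every duct array sat well above them. The difference was -0.71 (SE 0.08, adjusted p = 6.39e-05 by limma). It was -0.67 on the lower-numbered slides, -0.74 on the higher-numbered ones and -0.91 under quantile normalization. Slc34a1 (NaPi-IIa), best known from kidney, averaged -0.47 ± 0.21 in TEBs and -0.05 ± 0.10 in ducts (SD, n = 6 each; difference -0.41, adjusted p = 0.00867 by limma). Slc20a1 (PiT-1), a phosphate carrier of most cells, had 0.20, 0.32 and 0.65 on TEB arrays, against -0.20, 0.10 and 0.20 on duct arrays. The groups touched without overlap, at a difference of 0.31 (SE 0.10, adjusted p = 0.0370 by limma). That call was lost under both other scalings (0.26 and 0.27) and on leaving out TEB replicate 1, 4 or 6 or duct replicate 2, 3 or 5 (0.25 to 0.32). The other 8 carriers of phosphate or sulfate passed in no comparison by the probe read for each gene, though a second probe of Slc13a1, a sulfate carrier named after its values were seen, passed in duct over stroma (0.27, adjusted p = 0.0326 by limma).

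Carriers of salt and bicarbonate included the gene furthest above stroma in ducts and the gene furthest below it in both structures. Slc12a2 (NKCC1), which brings sodium, potassium and chloride into epithelial cells, had log2 ratios of -0.67, 1.17 and 2.004 on TEB arrays, against 1.497, 1.97 and 3.02 on duct arrays. Duct arrays were all high, while TEB arrays ran from below stroma to the duct range. The duct mean of 2.05 (adjusted p = 6.25e-05 by limma) was the highest of any carrier in ducts. The difference between structures, -1.06 (SE 0.38), did not pass on the deposited scale (adjusted p = 0.0726), but did after quantile normalization (-1.34, adjusted p = 0.0211) and a common spread (-1.41, adjusted p = 0.0290), and without TEB replicate 3 or 5 (-1.19 and -1.26). It was -1.80 on the lower-numbered slides and -0.68 on the higher-numbered ones. The TEB mean over stroma, 0.995, was -0.02 on the lower-numbered slides and 1.503 on the higher-numbered ones. Slc12a1 (NKCC2), a relative known from kidney, had -0.64, -0.43 and -0.28 on TEB arrays, against -0.14, 0.00 and 0.20 on duct arrays. No array overlapped and ducts lay at the stroma level (difference -0.49, SE 0.09, adjusted p = 0.00148 by limma).

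Slc4a4 (NBCe1), which moves sodium with bicarbonate, was the carrier furthest below stroma, with log2 ratios of -2.95, -2.52 and -2.08 on TEB arrays, against -2.72, -1.56 and -1.04 on duct arrays. Every array was below stroma, and 1 duct array, replicate 2, fell within the TEB range. Slc4a4 was lower in TEBs by limma on the deposited scale (-0.83, SE 0.23, adjusted p = 0.0209), but not with a common spread (-0.43) and with the sign turned under quantile normalization (0.18, adjusted p = 0.755). The same held for Slc24a3 (NCKX3), an exchanger of sodium for calcium and potassium, at -1.54 ± 0.19 in TEBs and -1.20 ± 0.14 in ducts (SD, n = 6 each), whose difference was -0.33 as deposited and 0.42 under quantile normalization. Its call was also lost without TEB replicate 2, 4 or 6 or duct replicate 3, 4 or 6 (-0.33 to -0.28). Slc5a5 (NIS), the sodium-iodide symporter that loads milk with iodide, had 1.05, 1.54 and 2.24 on TEB arrays, against 0.50, 1.83 and 2.43 on duct arrays. Both structures were above stroma on every array and overlapped throughout (difference -0.08, SE 0.30, adjusted p = 0.890). Slc12a7 (KCC4), a potassium-chloride carrier, lay below stroma in both, at -0.68 ± 0.31 in TEBs and -0.43 ± 0.12 in ducts. Its difference did not pass with all arrays (-0.25, adjusted p = 0.214 by limma), but did without TEB replicate 3 (-0.36, adjusted p = 0.0151 by limma).

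Nucleoside carriers differed mainly from stroma. Slc28a3 (CNT3), a sodium-coupled nucleoside carrier, had log2 ratios of 0.48, 1.46 and 1.78 on TEB arrays, against 0.72, 1.61 and 1.93 on duct arrays. The structures overlapped and both were above stroma on every array. Its relative Slc28a2 (CNT2) lay below stroma on every array and averaged -1.12 ± 0.37 in TEBs and -0.59 ± 0.19 in ducts (SD, n = 6 each). That difference, -0.53 (adjusted p = 0.0275 by limma), was lost under both other scalings (-0.36 and -0.15) and without TEB replicate 4, 5 or 6 or duct replicate 1, 3 or 5 (-0.51 to -0.45). Slc43a3, a carrier of purine nucleobases, averaged -0.87 ± 0.16 in TEBs and -0.53 ± 0.18 in ducts. The difference of -0.34 (adjusted p = 0.0279 by limma) was gone under quantile normalization (-0.003) and was lost without TEB replicate 1, 5 or 6 or duct replicate 2, 3 or 5 (-0.34 to -0.30). Slc17a9, which loads ATP into vesicles, was below stroma at -0.49 ± 0.07 in TEBs and -0.41 ± 0.09 in ducts.

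Carriers of the secretory pathway supply the Golgi and endoplasmic reticulum with donors for sugar, sulfate and acetyl groups. Of 13 such genes, 1 was higher and 3 were lower in TEBs than in ducts, where 9.11% of all genes were higher and 11.3% lower. Slc33a1, which brings acetyl-CoA into the endoplasmic reticulum, had log2 ratios of -0.99, -0.65 and -0.17 on TEB arrays, against -0.07, 0.20 and 0.26 on duct arrays. The structures did not overlap, TEBs were below stroma on every array, and the duct mean of 0.14 did not pass against stroma (adjusted p = 0.296 by limma). The difference between the structures passed (-0.74, SE 0.13, adjusted p = 0.00132 by limma). Slc35a5, a member of the nucleotide sugar family, had -0.66, -0.48 and -0.23 on TEB arrays, against -0.06, 0.15 and 0.21 on duct arrays. Again no array overlapped, TEBs were below stroma on every array, and the duct mean of 0.10 did not pass against stroma (adjusted p = 0.247 by limma). The difference between the structures passed (-0.59, SE 0.09, adjusted p = 0.000336 by limma). Slc35a3, which brings UDP-N-acetylglucosamine into the Golgi, averaged -0.40 ± 0.33 in TEBs and 0.16 ± 0.26 in ducts (SD, n = 6 each; difference -0.56, adjusted p = 0.0213 by limma), and lost its call without duct replicate 1 or 4 (-0.51 and -0.50). Slc35b2, which brings the sulfate donor PAPS into the Golgi, was the higher gene, at 0.71 ± 0.32 in TEBs and 0.25 ± 0.13 in ducts. Its difference of 0.46 (adjusted p = 0.0252 by limma) was lost under both other scalings (0.39 and 0.31) and without TEB replicate 1, 2 or 5 or duct replicate 1 or 4 (0.39 to 0.45). Against stroma, 3 of the 13 were higher and 6 lower in TEBs, where 24.8% of all genes were higher and 21.8% lower. In ducts 1 was higher and 1 lower, where 17.1% of all genes were higher and 13% lower.

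Among 20 carriers of zinc, iron, copper and manganese, 2 were higher and 2 lower in TEBs than in ducts. The shares over all genes were 9.11% higher and 11.3% lower. Slc30a4 (ZnT4), the zinc exporter mutated in the lethal milk mouse, had log2 ratios of -0.52, 0.09 and 0.13 on TEB arrays, against 0.39, 0.46 and 0.83 on duct arrays. Duct arrays were all above TEB arrays and stroma, and TEB replicate 2 stood below the rest. The difference was -0.57 (SE 0.12, adjusted p = 0.00506 by limma), with -1.01 on the lower-numbered slides and -0.34 on the higher-numbered ones, and passed on each. Slc39a8 (ZIP8), an importer of zinc and manganese named after its values were seen, was also lower in TEBs, at -0.08 ± 0.23 in TEBs and 0.38 ± 0.21 in ducts (SD, n = 6 each). Slc30a7 (ZnT7), which moves zinc into the Golgi, had 0.43, 0.73 and 0.90 on TEB arrays, against -0.28, 0.27 and 0.48 on duct arrays. The ranges overlapped slightly, and the difference of 0.51 (SE 0.14, adjusted p = 0.0165 by limma) did not pass under the other scalings (0.40 and 0.36). Slc39a1 (ZIP1), a zinc importer, averaged 0.67 ± 0.37 in TEBs and 0.18 ± 0.18 in ducts. Its difference of 0.50 (adjusted p = 0.0354 by limma) was lost under both scalings (0.40 and 0.36) and without TEB replicate 2, 3, 4 or 6 or duct replicate 3, 5 or 6 (0.43 to 0.50).

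Of the iron carriers named by the rule, none passed between the structures. Slc22a17, a receptor for lipocalin-bound iron, spread widely, from 0.17 to 2.27 on TEB arrays and from -0.30 to 1.39 on duct arrays. The TEB mean over stroma, 1.16, passed, and the difference between structures (0.69, SE 0.39, adjusted p = 0.270 by limma) did not. Slc40a1 (ferroportin), the iron exporter, averaged -0.25 ± 0.17 in TEBs and -0.14 ± 0.27 in ducts (SD, n = 6 each). Its TEB mean passed against stroma but not without TEB replicate 2, 4 or 6 (-0.25 to -0.20). Slc39a14 (ZIP14), which imports zinc and iron, was above stroma in both, at 0.66 ± 0.22 in TEBs and 0.53 ± 0.41 in ducts. Slc30a2 (ZnT2), the other zinc exporter known from milk and named after its values were seen, averaged -0.04 in TEBs and -0.14 in ducts and passed in no comparison.

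Of 29 carriers of vitamins, choline, haem, urea and organic ions, none was higher and 2 were lower in TEBs than in ducts. Over all genes 9.11% were higher and 11.3% lower. Slc23a2 (SVCT2), the carrier of vitamin C, had log2 ratios of -0.75, -0.55 and -0.35 on TEB arrays, against -0.30, -0.18 and 0.12 on duct arrays. The arrays did not overlap, at a difference of -0.41 (SE 0.10, adjusted p = 0.00754 by limma) that was -0.19 on the lower-numbered slides and did not pass under quantile normalization (-0.28). Slc18b1, a vesicular polyamine carrier outside the naming rule and chosen after its values were seen, was the other lower gene, at -0.52 ± 0.14 in TEBs and -0.15 ± 0.12 in ducts (SD, n = 6 each), and did not pass under quantile normalization (-0.23, adjusted p = 0.135 by limma). Slc44a2, a choline-transporter-like protein, was above stroma in both, at 0.57 ± 0.10 in TEBs and 0.54 ± 0.14 in ducts. Slc19a1, the reduced folate carrier, was below stroma in both, at -0.74 ± 0.30 in TEBs and -0.61 ± 0.10 in ducts. Against stroma the class had 5 higher and 6 lower genes in TEBs, where 24.8% of all genes were higher and 21.8% lower. In ducts 7 were higher and 1 lower, where 17.1% of all genes were higher and 13% lower.

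Neither fatty acid, bile acid and steroid carriers (7 genes) nor neurotransmitter carriers (9 genes) had a gene that passed between the structures with all arrays as deposited. Over all genes 9.11% were higher and 11.3% lower in TEBs than in ducts. Slc27a1 (FATP1), a fatty acid uptake protein of fat and muscle, averaged -0.72 ± 0.38 in TEBs and -0.31 ± 0.15 in ducts (SD, n = 6 each). Its difference of -0.41 did not pass (adjusted p = 0.0799 by limma), but passed with the slide set as a covariate (-0.41, adjusted p = 0.0130), without TEB replicate 2 (-0.54, adjusted p = 0.00568) and on the higher-numbered slides (-0.57, adjusted p = 0.00644). Its duct mean passed against stroma with all arrays and not on leaving out TEB replicate 1 or 5 or any duct array (-0.34 to -0.26). Slc10a2, the bile acid carrier of the ileum, was above stroma at 0.44 ± 0.20 in TEBs and 0.49 ± 0.18 in ducts. Slc32a1, the vesicular GABA carrier, was small in size, with 0.15, 0.21 and 0.41 on TEB arrays, against 0.01, 0.06 and 0.13 on duct arrays, and had no overlap. Its difference of 0.17 did not pass (adjusted p = 0.0925 by limma). Of 26 genes with no assigned substrate, Slc16a9 alone passed between the structures, at -0.38 ± 0.25 in TEBs and 0.25 ± 0.33 in ducts (difference -0.63, adjusted p = 0.00943 by limma).

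The symbol rule also took 4 genes that are not carriers. Slc9a3r1 (NHERF1) is a scaffold that ties ion exchangers and other membrane proteins to the apical cytoskeleton of epithelia. It had log2 ratios of 2.06, 2.21 and 2.69 on TEB arrays, against 1.22, 1.52 and 1.64 on duct arrays. All arrays were far above stroma and the structures did not overlap. The difference was 0.81 (SE 0.12, adjusted p = 0.000283 by limma), and it was 0.45 with a common spread and 0.43 under quantile normalization, passing each time. Slc9a3r2 (NHERF2), its relative, was above stroma at 0.59 ± 0.20 in TEBs and 0.47 ± 0.15 in ducts (SD, n = 6 each) and did not pass between them. Slc4a1ap, a gene named after an anion exchanger's adaptor, averaged 0.15 in TEBs and 0.22 in ducts. Its duct mean passed against stroma, but not without duct replicate 2, 4, 5 or 6 (0.20 to 0.23).

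Of 32 mitochondrial carriers, 2 were higher in TEBs than in ducts, where 9.11% of all genes were, and 8 were lower, where 11.3% of all genes were, 1 of which (Slc25a20) turned sign under quantile normalization; the median difference was -0.03. The higher pair are the aspartate-glutamate carriers of the malate-aspartate shuttle, which brings reducing power from glycolysis into mitochondria. Slc25a12 (aralar) had log2 ratios of 0.97, 1.17 and 1.26 on TEB arrays, against 0.17, 0.24 and 0.51 on duct arrays. The arrays did not overlap, and the difference of 0.82 (SE 0.09, adjusted p = 2.81e-05 by limma) passed on both slide sets and under both other scalings. Slc25a13 (citrin) was higher over stroma still, with 1.05, 1.64 and 2.20 on TEB arrays, against 0.97, 1.09 and 1.37 on duct arrays. Its arrays overlapped. The difference of 0.56 (SE 0.16, adjusted p = 0.0240 by limma) was lost under both other scalings (0.27 and 0.19), on the lower-numbered slides (0.21), and without TEB replicate 4 or 6 or duct replicate 1, 3 or 4 (0.46 to 0.54).

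The lower mitochondrial genes began with Slc25a1, the citrate carrier that exports citrate for fatty acid synthesis. Slc25a1 had log2 ratios of -2.24, -1.15 and -0.09 on TEB arrays, against -0.71, -0.37 and -0.04 on duct arrays. TEB arrays spread over the whole range, and the highest of them lay within the ducts. The difference of -0.93 (SE 0.30, adjusted p = 0.0473 by limma) was lost on leaving out any array except TEB replicate 2 (-0.99 to -0.75). It was -0.13 on the lower-numbered slides and -1.33 on the higher-numbered ones. Under both other scalings it did not pass by limma (common spread -0.69, adjusted p = 0.0947, and quantile normalization -0.50, adjusted p = 0.258). Slc25a46, an outer-membrane protein of mitochondrial dynamics, had -1.90, -1.13 and -0.67 on TEB arrays, against -0.48, -0.39 and -0.17 on duct arrays. No array overlapped, and the difference of -0.85 (SE 0.17, adjusted p = 0.00285 by limma) passed on both slide sets and both other scalings. Its duct mean over stroma (-0.35) did not pass without TEB replicate 6 or duct replicate 1, 2, 3, 5 or 6 (-0.38 to -0.33). Slc25a35, whose substrate is not assigned here, had -1.51, -1.44 and -1.08 on TEB arrays, against -0.85, -0.59 and -0.33 on duct arrays. The groups did not overlap, and TEB replicate 5 stood above the other TEB arrays. The difference of -0.81 (SE 0.10, adjusted p = 9.62e-05 by limma) narrowly missed the threshold under quantile normalization (-0.37, adjusted p = 0.0505).

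Slc25a10, the dicarboxylate carrier for malate and succinate, averaged -0.51 ± 0.57 in TEBs and 0.29 ± 0.36 in ducts (SD, n = 6 each). Its difference of -0.80 (adjusted p = 0.0308 by limma) passed under both other scalings but was lost without TEB replicate 3, 4, 5 or 6 or duct replicate 2 or 4 (-0.77 to -0.64), and was -0.28 on the lower-numbered slides and -1.06 on the higher-numbered ones. The TEB mean over stroma passed with all arrays, was lost without TEB replicate 3, 4, 5 or 6 (-0.48 to -0.36) and was 0.13 on the lower-numbered slides. Slc25a4 (ANT1), the ADP/ATP exchanger of muscle and heart, had log2 ratios of -0.70, -0.46 and -0.09 on TEB arrays, against -0.13, 0.05 and 0.16 on duct arrays. Ducts lay at the stroma level and the ranges just met (difference -0.47, SE 0.10, adjusted p = 0.00397 by limma). Slc25a20, the carnitine-acylcarnitine carrier that brings fatty acids in for oxidation, had -2.58, -2.10 and -1.87 on TEB arrays, against -2.05, -1.48 and -1.04 on duct arrays. Every array was far below stroma. Slc25a20 was lower in TEBs as deposited (-0.64, SE 0.16, adjusted p = 0.0105 by limma), but at -0.29 with a common spread and with its sign turned, at 0.22, under quantile normalization it did not pass. The remaining lower carriers, chosen for naming after their values were seen, were Slc25a22 for glutamate and Slc25a23 for ATP-magnesium and phosphate, with differences of -0.40 and -0.45. Neither passed with a common spread (-0.24 and -0.36) or under quantile normalization (-0.07 and -0.31).

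Against stroma, 14 of the 32 mitochondrial carriers were lower and 4 higher in TEBs (median -0.20), where 21.8% of all genes were lower and 24.8% higher. In ducts 11 were lower and 3 higher (median -0.12), where 13% of all genes were lower and 17.1% higher. The medians over all genes were 0.01 in both. Slc25a33, a pyrimidine nucleotide carrier, lay below stroma at -1.09 ± 0.21 in TEBs and -0.91 ± 0.37 in ducts (SD, n = 6 each), as did Slc25a39, known for glutathione, at -0.57 ± 0.09 in TEBs and -0.64 ± 0.36 in ducts. Slc25a51, known for NAD, averaged -0.91 ± 0.54 in TEBs and -0.63 ± 0.44 in ducts, and its duct mean did not pass without duct replicate 2 or 5 (-0.48 and -0.58). None of these 3 passed between the structures. Of the brown adipocyte markers, among them Ucp1, all 7 measured were lower than stroma in TEBs and 6 in ducts. Their mean over the list ran from -2.71 to -2.10 on TEB arrays, against -2.15 to -0.91 on duct arrays. Adipocyte markers were lower than stroma for 5 of 6 measured in TEBs and 2 in ducts, with array means of -1.28 to -0.84 in TEBs and -0.54 to -0.34 in ducts. Endothelial markers had array means of -1.60 to -1.12 in TEBs and -0.59 to -0.15 in ducts. The part of these cells in the carriers that lay below stroma was not tested.

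**Figure D3:**
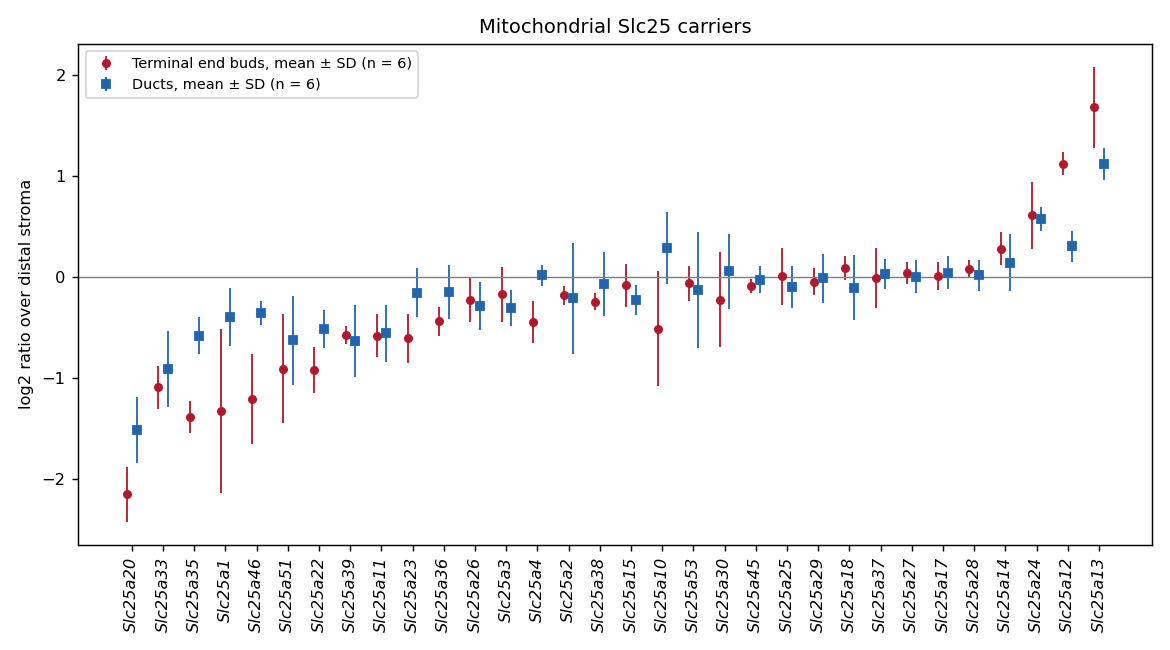
Mean log2 ratio over distal stroma with SD (n = 6 arrays each) for the 32 mitochondrial Slc25 carriers, TEB as circles and duct as squares, ordered by the mean of both. Slc25a20 lies lowest, at -2.15 in TEBs and -1.51 in ducts, though its difference between the structures turned to 0.22 under quantile normalization, and Slc25a12 and Slc25a13 lie highest in TEBs.

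Across all classes, the comparison with stroma called 48 carriers higher in TEBs (19.7%), against 24.8% of all genes, and 53 lower (21.7%), against 21.8%. In ducts it called 43 higher (17.6%), against 17.1% of all genes, and 30 lower (12.3%), against 13% of all genes. The median over the carriers was -0.01 in TEBs and 0.02 in ducts. The members furthest above stroma in TEBs were the scaffold gene Slc9a3r1 (2.30) and the carriers Slc7a5 (2.29), Slc25a13 (1.68), Slc5a5 (1.65) and Slc2a1 (1.52). In ducts they were the carriers Slc12a2 (2.05), Slc5a5 (1.73) and Slc28a3 (1.53), the scaffold gene Slc9a3r1 (1.49) and the carrier Slc25a13 (1.12). The lowest 4 were Slc4a4, Slc25a20, Slc16a1 and Slc24a3 in both, at -2.49, -2.15, -1.77 and -1.54 in TEBs and -1.67, -1.51, -1.26 and -1.20 in ducts. Both structures were set against stroma in Cy3, so these orders share a denominator and a dye arrangement. In all, 122 of the 244 genes passed in none of the 3 comparisons. The same count over all genes was not made.

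**Figure D4:**
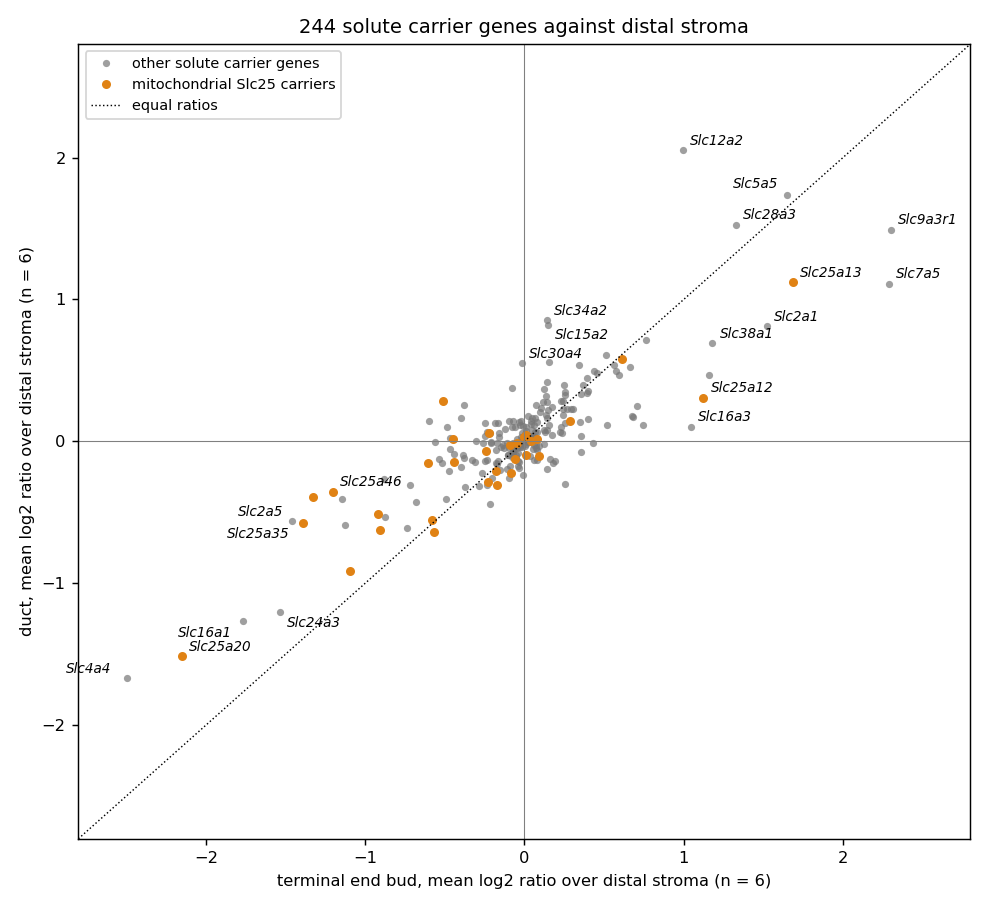
Mean log2 ratio over distal stroma in TEB (x axis) and duct (y axis) for 244 carrier genes, 6 arrays each, mitochondrial carriers in orange, with the line of equal ratios. Slc7a5, Slc9a3r1 and Slc2a1 lie right of the line, and Slc12a2, at 0.995 in TEB and 2.05 in duct, lies above it, though its difference did not pass on the deposited scale.

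Because TEB arrays spread more widely than duct arrays, the difference between structures was also computed after giving all arrays a common spread and after quantile normalization. The higher calls became 5 under each, and the same 5 genes, Slc7a5, Slc16a3, Slc25a12, Slc5a8 and Slc9a3r1, passed under both. Over all genes the share called higher also fell, from 9.11% to 6.47% with a common spread and 6.03% under quantile normalization. The lower calls became 20 with a common spread and 14 under quantile normalization. The share of all genes called lower fell likewise, from 11.3% to 9.18% and 7.51%. Of the 28 deposited lower calls, 13 passed under both: Slc25a10, Slc25a4, Slc25a46, Slc33a1, Slc35a3, Slc35a5, Slc34a1, Slc34a2, Slc12a1, Slc15a2, Slc16a9, Slc30a4 and Slc39a8. The 4 carriers furthest below stroma, Slc4a4, Slc25a20, Slc16a1 and Slc24a3, are those whose difference turned from lower to higher in TEBs under quantile normalization, and none of them passed there. Of 35 named genes called between the structures, all 35 kept their sign on the 4 lower-numbered slides and on the 8 higher-numbered ones, and 13 and 27 passed there. These genes were picked by their calls on the same arrays, so the kept signs are no independent check. Beside the genes given above, differences moved by over 1.5 times on the lower-numbered slides for Slc4a4 (-0.44), Slc28a2 (-0.23), Slc34a1 (-0.25), Slc24a3 (-0.20), Slc39a1 (0.20), Slc30a7 (0.32) and Slc20a1 (0.19), which did not pass there, and for Slc35a3 (-0.96) and Slc35b2 (0.70), which did.

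**Figure D5:**
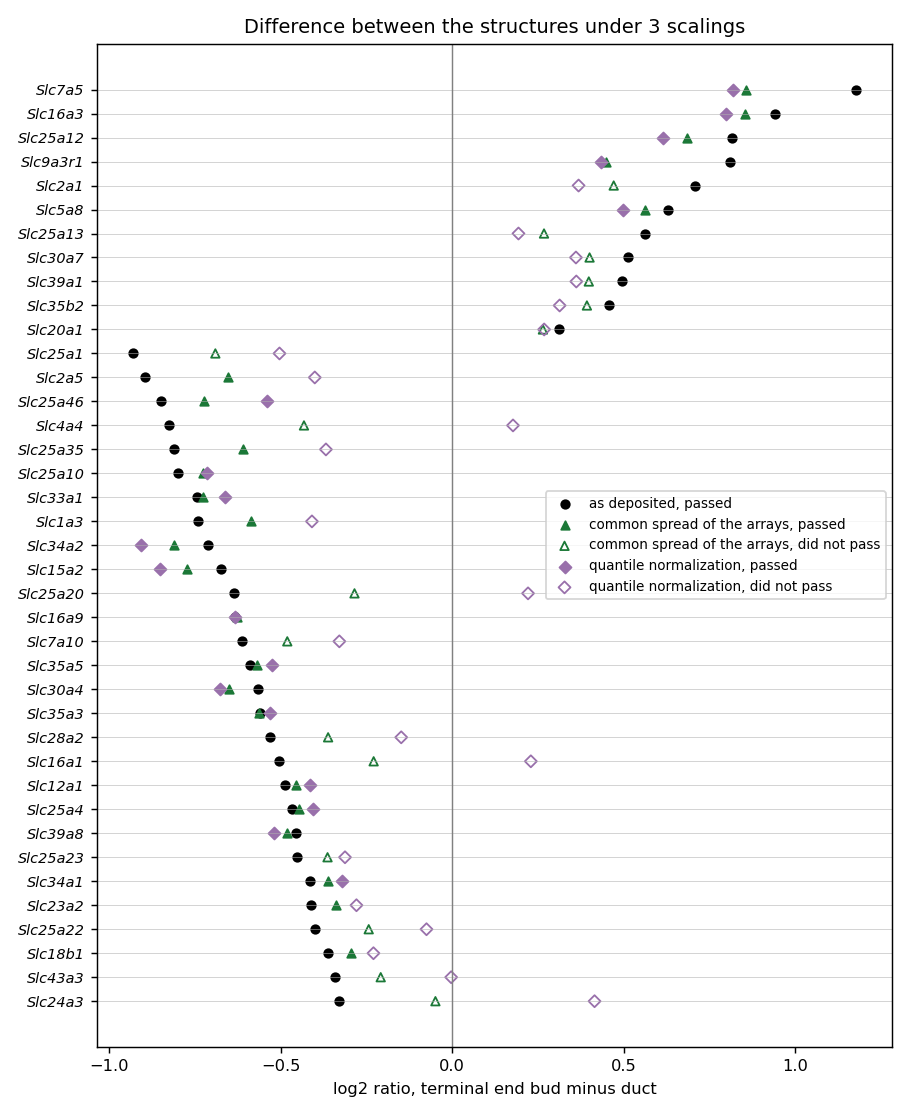
Difference in log2 ratio, TEB minus duct (x axis), for the 39 carrier genes called on the deposited scale, as deposited, with a common spread of the arrays and after quantile normalization; filled symbols passed at an adjusted p of 0.05 and open ones did not. Slc7a5 stays positive under each, at 1.18 as deposited, while Slc4a4, Slc25a20, Slc16a1 and Slc24a3 cross 0 under quantile normalization.

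Genes that work beside the carriers were read from companion lists, whose counts between the structures stand against 9.11% of all genes higher and 11.3% lower in TEBs. Their calls by limma were made on the deposited scale with all arrays. They were not repeated under the other scalings or with arrays left out. Of 10 measured sodium pump subunits and regulators, 1 was higher and 3 lower in TEBs than in ducts. Against stroma, 3 of these were higher and 3 lower in TEBs (-1.04 to 3.41), where 24.8% of all genes were higher and 21.8% lower. Fxyd3, a small regulator of the pump, was far above stroma in both, at 3.41 in TEBs and 3.24 in ducts. Among 12 chaperones and scaffolds none was higher and 3 were lower. Against stroma, 4 of the 12 were higher and 4 lower in TEBs, with values from -1.34 to 1.25. Emb (embigin), a partner chain of the lactate carriers, was above stroma at 1.25 in TEBs and 0.80 in ducts. Stk39 (SPAK), a kinase that acts on Slc12a2, was at 0.90 in TEBs and 0.50 in ducts. Neither Emb nor Stk39 passed between the structures. Of 9 water channels only Aqp1, also an endothelial gene, passed between the structures (-1.53), while Aqp5 was above stroma at 2.33 in TEBs and 2.06 in ducts.

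Of 10 organic anion transporting polypeptides, Slco2a1, the prostaglandin carrier, was the only 1 to pass between the structures, at 2.09 over stroma in TEBs and 0.38 in ducts (difference 1.71). Of 15 carbonic anhydrases, Car12, which hydrates carbon dioxide outside the cell, was higher in TEBs (1.26) and Car4 lower (-0.39). Of 31 ABC transporters, none was higher and 5 were lower in TEBs than in ducts, against 9.11% and 11.3% of all genes. Abcc9 (-1.05) and Abcd2 (-1.04), which serves peroxisomal fatty acids, were the lowest of them. Of 18 partners of metal transport, 1 was higher and 5 lower, with Cp (ceruloplasmin, -1.37) and Trf (transferrin, -1.13) the lowest. Trf was above stroma in both, at 0.91 in TEBs and 2.03 in ducts. Of 19 mitochondrial pores, pyruvate carriers and import factors, the outer-membrane channels Vdac2 (0.59) and Vdac1 (0.44) were higher in TEBs than in ducts, and Sfxn1 (-0.79), a mitochondrial serine carrier, Tomm70a (-0.51) and Timm9 (-0.35) were lower.

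Counted by probe instead of by gene, 11 were higher and 28 lower in TEB against duct, where 8.32% and 10.4% of all probes were called, 53 and 54 in TEB against stroma, where 23.2% and 20.4% were, and 48 and 31 in duct against stroma, where 16% and 12.2% were. Of the 244 genes, 18 had 2 probes. Between TEB and duct neither probe of any of these 18 genes passed, so the agreement of their calls could not be checked; the probes of Slc38a10, named after its values were seen, read 0.55 and -0.19. Against stroma, only Slc38a4, a carrier of neutral amino acids, had opposite calls, at 0.42 and -0.22 in ducts. A further 7 of the 18 genes in ducts, and 7 in TEBs, had 1 probe that passed and 1 that did not. Slc25a5 and Slc39a6, which were to be given whatever they showed, are not analysed here.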

How the data were processed

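Total RNA of TEBs (6 arrays) and ducts (6 arrays) was hybridised in Cy5 against distal stroma in Cy3, per the labels. The authors deposited 1 table of log2 ratios, epithelium over stroma; the base is not stated, base 2 was taken from the size of the values, and natural logarithms remain possible. Not given in the sources used here: scanner, background correction and scaling. The number of arrays limits precision. Array medians lay between 0.01 and 0.023, and values were used as deposited; 129 of 17589 probes had 1 missing value, 2 of them members, whose fits used the other 11 arrays.

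Probe names came from the platform annotation (14136 probes with 1 symbol, 13 with several, 3440 unnamed here); 14029 were matched by gene number to RefSeq GRCm38.p6, which changed 0 symbols. A gene was read from the probe with most values, then the first in the table. One fit of both group means in limma 3.58.1 (R 4.3.3; lmFit, eBayes, two-sided, Benjamini-Hochberg over all probes with at least 4 values in each group, threshold 0.05) gave each group's mean against 0 and their difference. The fit was tested on simulated data.

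Named genes were, in each comparison, the 10 highest and 10 lowest member genes that passed and had the same sign on at least 5 of 6 arrays (between structures, medians in the direction of the means), up to 4 of each substrate class, and a short list given whatever they showed; 67 genes resulted. The members, classes, marker lists and companion lists were chosen with earlier results of these data known. Promoter windows were searched by plain letter match.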

Additional observations from a re-analysis of the deposited data

Results flagged for a closer look

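Of 134 sets of 6 arrays checked (67 named genes in each structure), 8 had a highest or lowest array whose gap to the next, over the whole range, passed Dixon's limit; chance gives about 1 in 20. In TEBs these were Slc25a35 (-1.08, replicate 5), Slc10a2 (0.82, replicate 5), Slc27a3 (-0.33, replicate 5), Slc9a8 (-0.046, replicate 3) and Slc30a4 (-0.52, replicate 2). In ducts they were Slc2a1 (0.37, replicate 4), Slc4a4 (-2.72, replicate 2) and Slc40a1 (-0.66, replicate 2). TEB replicate 5 held 3 of the 8.

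For 8 of the 67 named genes the TEB mean was below 0 and the duct mean above 0, and the difference between the structures passed by limma. They were Slc25a10 (-0.80), Slc33a1 (-0.74), Slc16a9 (-0.63), Slc35a5 (-0.59), Slc30a4 (-0.57), Slc35a3 (-0.56), Slc12a1 (-0.49) and Slc25a4 (-0.47), each a difference of TEB minus duct in log2 ratio. All 8 passed under both other scalings too. Against stroma, the TEB mean passed for all of them except Slc30a4 (-0.02, adjusted p = 0.909 by limma), whose sign came from replicate 2, since its other arrays read 0.02 to 0.13 and the mean without it was 0.09. The duct mean passed for Slc30a4 alone; for the others it had adjusted p-values of 0.101 to 0.877 and as little as 0.02 in Slc12a1 and Slc25a4, so opposite directions against stroma were not shown for any of the 8. Slc39a8, outside the naming rule and named after its values were seen, had the same signs of its means, -0.08 in TEBs and 0.38 in ducts (difference -0.46).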

How the results depend on the processing

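Counts of carrier probes called were 11 higher and 28 lower in TEB against duct, 53 and 54 in TEB against stroma and 48 and 31 in duct against stroma. Quantile normalization gave 5 higher and 15 lower between the structures, and a common spread gave 5 higher. Over all genes, counted by gene and not by probe, the calls also fell from 9.11% higher and 11.3% lower. They became 6.03% higher and 7.51% lower under quantile normalization and 6.47% higher with a common spread. Asking for a log2 difference of at least 0.5 as well left 18 lower between the structures, 23 higher and 25 lower in TEB against stroma, and 19 higher and 14 lower in duct against stroma. The 4 lower-numbered slides alone, a split chosen after seeing the data, gave 6 and 8, 33 and 28, and 22 and 16. Leaving out 1 array at a time gave 8 to 12 higher and 20 to 28 lower between the structures. The ranges were 46 to 53 and 46 to 54 in TEB against stroma, and 44 to 50 and 23 to 31 in duct against stroma. For the log2 cut, the slide set and the runs without 1 array, the same counts over all probes were not made. Whether these changes are particular to the carriers was therefore not tested. Under quantile normalization the difference between the structures turned to 0.18 for Slc4a4, 0.22 for Slc25a20, 0.23 for Slc16a1 and 0.42 for Slc24a3, and on the lower-numbered slides TEB over stroma turned to 0.13 for Slc25a10 and -0.0205 for Slc12a2. The cause of these changes was not tested. Of 137 calls of named genes, 65 were lost under at least 1 setting, 24 of them on leaving out 1 array; none was lost with neighbouring slide numbers as a random block or with the lower- against the higher-numbered slides as a covariate, which added calls of Slc12a2 and Slc27a1 between the structures and of Slc7a10 in duct against stroma. The labels give slide numbers but no replicate numbers, and the replicate numbers used here follow the slide numbers within each structure. Nothing says that neighbouring slides are a pair. The random block, which joined 1 TEB and 1 duct array of neighbouring slides, is therefore not a known pairing. The deposited ratios hold no signal over background, so dim probes could not be told from bright ones.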
